A study of Mus musculus with 2 samples.

Results

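The nuclear genes of the respiratory chain and the ATP synthase were compared between a *Dnmt1*-WT and a *Dnmt1*-KO library from jejunal tunica muscularis, the smooth muscle layers of the gut peeled from the mucosa. Members were taken by symbol alone, as genes whose names start with Ndufa, Ndufb, Ndufc, Ndufs, Ndufv, Sdh, Uqcr, Atp5 or *Cox4* to *Cox8*, with assembly factors (Ndufaf, Sdhaf) and pseudogenes left out. The rule found 85 members among the 18159 genes of the deposited table, 38 of complex I, 4 of complex II, 8 of complex III, 18 of complex IV and 17 of complex V. Each genotype was represented by 1 mRNA library from mice aged 15 days, so none of the differences below could be set against a spread between replicates and no test was made. *Dnmt1*-KO mice carried *Dnmt1* lox/lox alleles and the smMHC Cre-eGFP/+ transgene, while *Dnmt1*-WT mice are described in the study as smMHC Cre-eGFP/+ controls, both on a C57BL/6 background. The *Myh11* promoter drives Cre recombinase and eGFP in this transgene, so recombination is expected in smooth muscle cells only, and the other cells of the muscle wall should keep *Dnmt1*. The strain label is the same for both libraries and names the lox/lox alleles, and a free-text note calls both samples knockouts, so the genotype label and the title were used to assign them. Mice of both sexes contributed, and how their RNA was combined for each library is not given in the sources used here. The values are FPKM, in which the authors corrected fragment counts for transcript length and sequencing depth. Fragment counts per gene were not used here, so the values carry no counting interval.

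Complexes I to IV pass electrons from NADH or succinate through ubiquinone and cytochrome c to oxygen, and complexes I, III and IV pump protons across the inner mitochondrial membrane while doing so. Complex V, the ATP synthase, lets the protons flow back through a rotating ring and uses the turning to make ATP, which smooth muscle spends on cross-bridge cycling and on pumping calcium. A few subunits of complexes I, III, IV and V are encoded in mitochondrial DNA, all others in the nucleus, and several nuclear subunits of complex IV exist in forms restricted to heart, skeletal muscle, lung or testis. None of the mitochondrially encoded genes is listed in the table under its usual symbol, so everything below concerns the nuclear subunits.

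Smooth muscle was recognisable in both libraries. All 10 smooth muscle markers were lower in *Dnmt1*-KO, the median log2 ratio being -0.63, with a summed level of 19820 FPKM in *Dnmt1*-WT and 13509 FPKM in *Dnmt1*-KO. Markers of several other cells were higher in *Dnmt1*-KO, and the summed level of 8 leukocyte genes went from 58.5 to 244.4 FPKM, that of 8 enterocyte genes from 482.1 to 1049 FPKM, that of 8 white adipocyte genes from 115.4 to 1253 FPKM and that of 6 endothelial genes from 46.3 to 106.5 FPKM. All leukocyte, enterocyte and endothelial genes and 7 adipocyte genes were higher in *Dnmt1*-KO, and the remaining one, *Lep*, was listed at 0 in *Dnmt1*-WT and at 0.20 FPKM in *Dnmt1*-KO. The 4 markers of interstitial cells of Cajal, the pacemaker cells of the gut, were all lower, with a sum of 282.2 and 176.6 FPKM. That sum fell mostly through *Gja1*, at 158.4 and 72.34 FPKM, whereas *Kit* was nearly level, at 38.95 and 38.1 FPKM. *Ano1* had a ratio of 0.809 and *Etv1* of 0.746. Of 6 pericyte markers 4 were lower, and the 6 had a sum of 648.5 and 238.5 FPKM. *Dnmt1* itself was at 11.58 FPKM in *Dnmt1*-WT and 7.58 FPKM in *Dnmt1*-KO. In RNA of a whole tissue, fewer cells of a type and less RNA per cell cannot be told apart, and the part of the cell mixture in the values below was not tested.

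As a whole, the respiratory chain and ATP synthase genes were at nearly the same level in both libraries. Their FPKM summed to 27696 in *Dnmt1*-WT and 29098 in *Dnmt1*-KO, which was 6.45% and 6.31% of all FPKM in the table. A plain ratio of FPKM, *Dnmt1*-KO over *Dnmt1*-WT, was taken for 83 members, and *Cox7b2* and *Cox8c* were listed at 0 in *Dnmt1*-WT. Of the 83, 43 were lower in *Dnmt1*-KO and 40 were higher, or 51.8% and 48.2%, against 49.1% and 50.3% of the 16102 genes above 0 in both libraries. The split depended on the scaling, with 56 lower and 27 higher once each library was divided by its FPKM sum, and 65 lower and 18 higher once genes were centred on others of like transcript length. The members lower were thus 67.5% and 78.3%, against 57% and 47.1% of all genes under the same scaling and centring, and 61.7% and 52% of genes that reached 10 FPKM in at least one library. The median log2 ratio, computed with 0.1 added to each FPKM, was -0.00079 over the 85 members and 0.0050 over those 16102 genes.

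Large differences were less common among these genes than among all genes when ratios were taken without scaling. A level at least 20% lower in *Dnmt1*-KO was found for 8 members, or 9.64%, against 25.4% of all genes with a ratio, and a level at least 25% higher for 12 members, or 14.5%, against 29.5%. The first count was 17, or 20.5%, with each library divided by its FPKM sum, against 32.3% of all genes and 32.6% of those at 10 FPKM or more. With centring on transcript length it was 22, or 26.5%, against 22.2% and 21.3%, so the members did not have the smaller share there. No member had a ratio of 0.5 or less, where 4.98% of all genes were, and 1, *Cox6a2*, had a ratio of 2 or more, where 11.8% of all genes were. Low genes scatter more, so the same counts were made over genes that reached 10 FPKM in at least one library, 80 members and 7054 genes in all. There, 42 members were lower and 38 higher, or 52.5% and 47.5%, against 52.9% and 47.1% of all genes at that level. At least 20% lower were 8.75% of these members and at least 25% higher 13.8%, against 24.2% and 21.7% of all genes, and none passed a ratio of 0.5 or 2, against 2.93% and 5.2%. The middle of the distribution was narrower as well, with quartiles of the log2 ratio at -0.18 and 0.13 for these 80 members and at -0.31 and 0.27 for the 7054 genes.

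**Figure D1:**
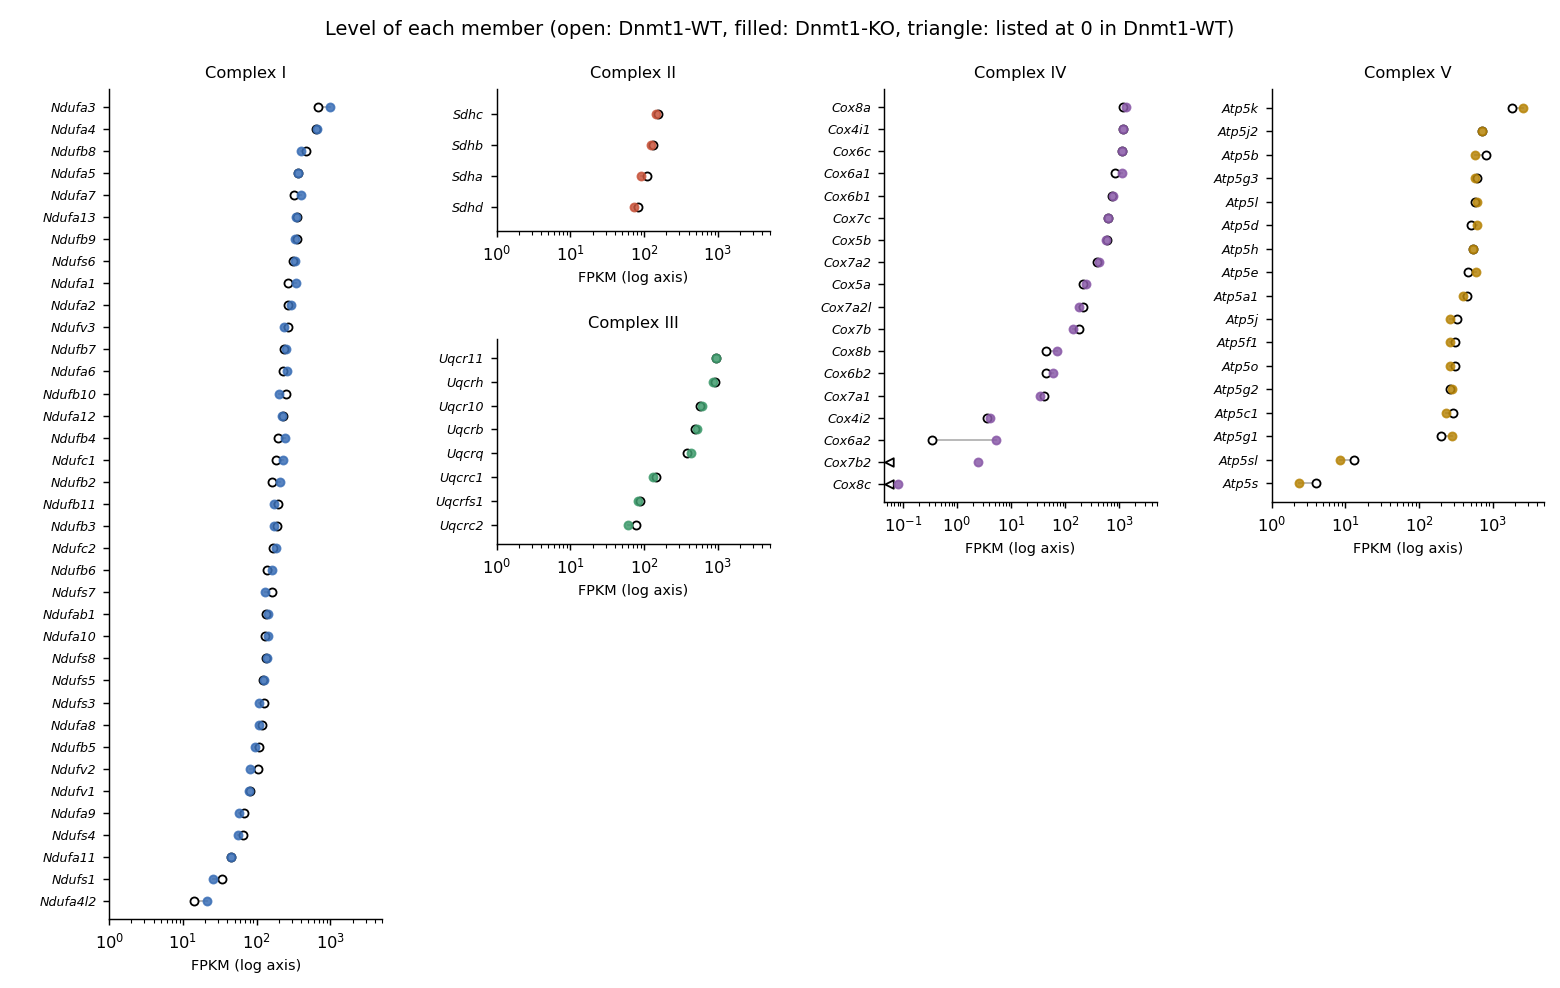
FPKM (log axis) of 84 of the 85 members in the *Dnmt1*-WT library (open circles) and the *Dnmt1*-KO library (filled circles), by complex, ordered by the mean of both libraries; a triangle marks a gene listed at 0 in *Dnmt1*-WT. Most pairs of points nearly coincide, *Cox6a2* is the exception among genes above 0 in both libraries, and *Atp5k* is the most abundant member, at 1812.61 and 2555.15 FPKM.

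Complex I takes electrons from NADH. Its 38 members were split evenly by the ratio without scaling, with 19 lower and 19 higher in *Dnmt1*-KO and a median log2 ratio of 0.02. Division by the FPKM sum gave 25 lower and 13 higher, and centring on transcript length gave 28 lower and 10 higher. The 7 core subunits encoded in the nucleus, which bind the flavin and the iron-sulfur clusters, had 5 of 7 lower with a median of -0.20, where 49.1% of all genes and 52.9% of those at 10 FPKM or more were lower. The 28 accessory subunits, which surround the core, were 14 lower and 14 higher without scaling, with a median of 0.03.

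The NADH module, at the tip of the arm that reaches into the matrix, was the lowest group within complex I. *Ndufs1*, the largest subunit, with several iron-sulfur clusters, was at 33.96 FPKM in *Dnmt1*-WT and 25.67 FPKM in *Dnmt1*-KO, a ratio of 0.756 and the lowest of the complex without centring. With centring on transcript length its log2 ratio was -0.38, and *Ndufs7* (-0.53) and *Ndufb10* (-0.52) were among those lower. *Ndufv2*, a partner subunit with an iron-sulfur cluster, was at 104.01 and 80.10 FPKM. *Ndufv1*, which binds NADH and the flavin, was closer, at 81.28 and 77.73 FPKM. All 3 stayed lower under each scaling between the libraries that was tried.

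The module that hands electrons to ubiquinone went in both directions. *Ndufs7*, which holds the last iron-sulfur cluster before ubiquinone, was at 161.95 FPKM in *Dnmt1*-WT and 130.17 FPKM in *Dnmt1*-KO. *Ndufs3*, a structural core subunit, was at 124.37 and 108.36 FPKM. *Ndufs8*, with further clusters on the electron path, was higher, at 133.14 and 136.97 FPKM. The small excess of *Ndufs8* turned into a deficit when each library was divided by its FPKM sum and when genes were centred on transcript length or GC content.

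Accessory subunits of the matrix arm numbered 9, with 5 lower, 4 higher and none at least 20% lower or 25% higher by the ratio without scaling. With centring on transcript length all but *Ndufa7* were lower. *Ndufa9* was at least 20% lower with that centring (log2 ratio -0.355) and with division by the FPKM sum (-0.345). The lowest was *Ndufa9*, at 67.10 and 56.63 FPKM, and *Ndufs4*, needed for a stable NADH module, was at 65.34 and 56.05 FPKM. The highest was *Ndufa7*, at 318.72 and 392.23 FPKM. In the membrane arm, where protons are pumped, 9 of 19 accessory subunits were lower and 10 higher by the ratio without scaling. At least 25% higher were 4, where 29.5% of all genes and 21.7% of those at 10 FPKM or more were. *Ndufa3*, the most abundant complex I member, was at 678.05 FPKM in *Dnmt1*-WT and 979.15 FPKM in *Dnmt1*-KO, a ratio of 1.44. *Ndufb2* followed at 159.56 and 206.52 FPKM, *Ndufa1* at 263.89 and 339.44 FPKM, and *Ndufc1* at 181.61 and 228.19 FPKM. These 4 stayed higher under every alternative run. Of them, only *Ndufb2*, taken at an annotated length of 2413 nt, was at least 25% higher with centring on transcript length (log2 ratio 0.36). Only *Ndufa3* was so with division by the FPKM sum (0.43). Of the rest of the arm, only *Ndufa10* and *Ndufb4* stayed higher with centring on length. *Ndufb10* was the lowest of the arm, at 250.35 and 203.05 FPKM, and the abundant *Ndufb8* was at 469.27 and 397.09 FPKM. *Ndufab1*, the mitochondrial acyl carrier protein, sits in both arms and was at 134.63 and 140.24 FPKM.

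Complex II oxidises succinate and is also an enzyme of the citric acid cycle. By the ratio without scaling it was the one complex with every subunit lower in *Dnmt1*-KO, though none by 20% or more, and the median log2 ratio was -0.12. With centring on transcript length the 8 members of complex III were all lower as well, and with division by the FPKM sum 1 subunit of complex II was at least 20% lower. *Sdha*, the flavoprotein that binds succinate, was at 108.68 FPKM in *Dnmt1*-WT and 90.45 FPKM in *Dnmt1*-KO. *Sdhb*, with its iron-sulfur clusters, was at 131.70 and 125.42 FPKM. The membrane anchors *Sdhc* and *Sdhd* were at 155.10 and 145.58 FPKM and at 81.19 and 73.01 FPKM. *Sdha*, *Sdhb* and *Sdhd* stayed lower under every alternative run and *Sdhc* under all but centring on GC content, where its log2 ratio was 0, but a ratio under 1 was found for 49.1% of all genes, and 4 genes from 1 library of each genotype are few.

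Complex III passes electrons from ubiquinol to cytochrome c, and its large and small subunits differed in direction. *Uqcrc2*, a core protein, was at 78.04 FPKM in *Dnmt1*-WT and 59.50 FPKM in *Dnmt1*-KO, a ratio of 0.762. *Uqcrc1*, the other core protein, was at 145.02 and 132.31 FPKM, and the Rieske iron-sulfur protein *Uqcrfs1* at 86.47 and 83.32 FPKM. *Cyc1*, which encodes the cytochrome of the complex and is named outside the symbol rule, was at 166.98 and 150.16 FPKM. Of 5 small subunits, 4 were higher, *Uqcrq* at 377.42 and 425.35 FPKM, *Uqcrb* at 486.35 and 518.46 FPKM, *Uqcr10* at 570.77 and 607.69 FPKM and *Uqcr11* at 940.58 and 947.66 FPKM. *Uqcrh*, a hinge protein that helps cytochrome c dock, was lower, at 912.57 and 864.47 FPKM. The 4 higher small subunits turned lower when genes were centred on transcript length, *Uqcrb*, *Uqcr10* and *Uqcr11* also when each library was divided by its FPKM sum, and *Uqcr10* and *Uqcr11* also with centring on GC content. *Uqcrfs1* turned higher with scaling to the upper quartile and with centring on GC content.

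Complex IV reduces oxygen to water. It had the highest median of the 5 complexes, 0.14 on the log2 scale, with 6 of 16 members with a ratio lower and 10 higher. With centring on transcript length its median was -0.076, with 12 lower and 4 higher. The 4 subunits with a single form, *Cox5a*, *Cox5b*, *Cox6c* and *Cox7c*, had ratios between 0.951 and 1.13. *Cox6c* was among the 3 most abundant members of the complex, at 1127.96 FPKM in *Dnmt1*-WT and 1132.79 FPKM in *Dnmt1*-KO. Without the tissue-restricted forms and *Cox7a2l*, the median of complex IV was 0.04. It was also 0.04 with a level of 10 FPKM required in at least one library, so the difference from the other complexes rested in part on forms at low level.

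Among the ubiquitous forms of complex IV subunits that also have a restricted form, 2 were lower and 4 higher. *Cox4i1*, which carries a binding site for ATP, was at 1195.51 and 1158.17 FPKM. *Cox7b* was the lowest of the complex by the ratio without scaling, at 180.88 FPKM in *Dnmt1*-WT and 138.37 FPKM in *Dnmt1*-KO, a ratio of 0.765. With centring on GC content its log2 ratio was -0.044, and *Cox7a1* (-0.42) and *Cox4i1* (-0.20) were among those lower. *Cox6a1* was the highest of the abundant forms, at 826.71 and 1117.37 FPKM, a ratio of 1.35. *Cox8a*, the most abundant member of the complex by the mean of both libraries, was at 1179.93 and 1319.47 FPKM. *Cox6b1* was at 750.24 and 786.05 FPKM and *Cox7a2* at 388.30 and 422.44 FPKM. *Cox6a1* stayed higher and *Cox7b* lower under every alternative run, while *Cox8a*, *Cox6b1* and *Cox7a2* turned lower when genes were centred on transcript length. *Cox8a* also turned lower with centring on GC content and *Cox6b1* with division by the FPKM sum, and *Cox4i1* turned higher with scaling to the upper quartile.

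Every restricted form of a complex IV subunit stayed a minor part of its subunit in both libraries. *Cox8b*, the heart and skeletal muscle form of subunit 8, was at 44.61 FPKM in *Dnmt1*-WT and 72.15 FPKM in *Dnmt1*-KO, and its share of the subunit went from 3.64% to 5.18%. *Cox6b2*, known as a testis form, was at 44.87 and 60.32 FPKM, a share of 5.64% and 7.13%. *Cox7a1*, the heart and skeletal muscle form of subunit 7a, was the one lower form without centring on transcript length, at 41.48 and 33.68 FPKM, a share of 9.65% and 7.38%. Shares compare genes of different length through FPKM, which is a level per length.

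The other restricted forms were near the low end of the scale. *Cox6a2*, a heart and skeletal muscle form, was at 0.35 FPKM in *Dnmt1*-WT and 5.25 FPKM in *Dnmt1*-KO, a ratio of 15.0, and still made up 0.468% of its subunit in *Dnmt1*-KO. *Cox4i2*, a form found in lung, was at 3.55 and 4.11 FPKM, and turned lower with centring on transcript length (log2 ratio -0.011). *Cox7b2*, a testis form, was listed at 0 in *Dnmt1*-WT and at 2.46 FPKM in *Dnmt1*-KO, where it made up 1.75% of its subunit. *Cox8c*, also a testis form, was listed at 0 and at 0.08 FPKM. Being listed at 0 in *Dnmt1*-WT and above 0 in *Dnmt1*-KO was common, with 953 of 1527 genes at 0 in *Dnmt1*-WT, or 62.4%.

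Markers of the tissues these forms are known from did not move as one. The summed level of 11 listed striated muscle genes was 118.7 FPKM in *Dnmt1*-WT and 80.0 FPKM in *Dnmt1*-KO, with 4 lower, 6 higher and *Ryr1* at 0 in *Dnmt1*-WT. *Ckm*, the muscle creatine kinase, was lower, at 96.73 and 41.41 FPKM, while the fast fibre genes *Tnni2* and *Tnnt3* were higher, at 2.58 and 9.50 FPKM and at 2.35 and 8.57 FPKM. Of 7 germ cell markers 5 were listed, and their summed level was 1.34 and 0.17 FPKM, with *Ldhc* at 0 in both libraries. The part of striated muscle or germ cell RNA in the restricted forms was not tested beyond these values. *Cox6a2* overlaps *Itgad* and *Cox4i2* overlaps *Bcl2l1* in the RefSeq annotation, and whether reads were counted by strand is not given in the sources used here. *Itgad* is not in the table, and *Bcl2l1* was at 29.57 and 41.59 FPKM.

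**Figure D2:**
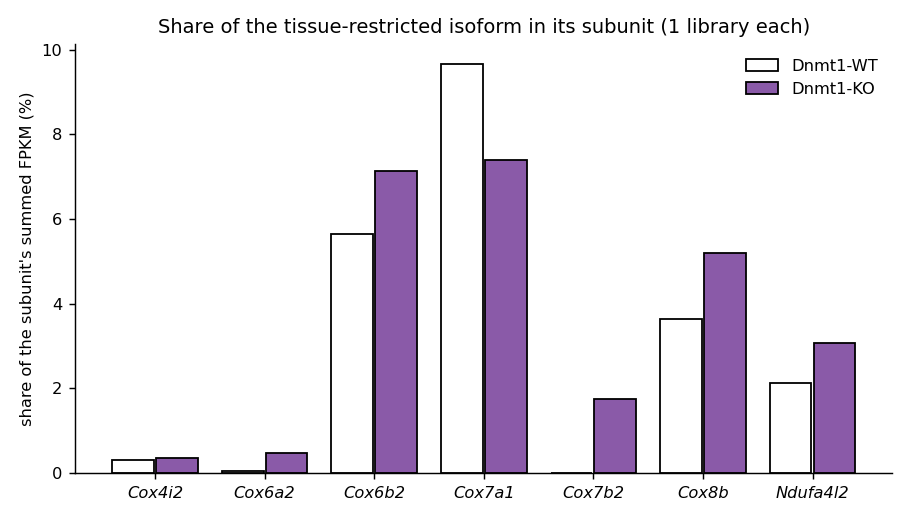
Share of each tissue-restricted form except *Cox8c*, which is not drawn, in the summed FPKM of its subunit (%, bars from 0), in the *Dnmt1*-WT library (open) and the *Dnmt1*-KO library (filled), with 1 library each. All shares lie under 10%, *Cox7a1* is the one form with a smaller share in *Dnmt1*-KO (9.65% and 7.38%), and *Cox7b2* has no bar in *Dnmt1*-WT because it was listed at 0.

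The windows around the transcription starts of these genes differ in how many CG dinucleotides they hold, the substrate of DNMT1, and are shown for the restricted forms *Cox7b2* and *Cox8b* beside the ubiquitous *Cox8a*. Each is a RefSeq window on GRCm38.p6 of 300 bases, 250 before and 50 after the annotated start, on the minus strand and written 5′ to 3′, with every CG in capitals. The *Cox7b2* window, at chr5:71548156-71548455, held 10. The *Cox8b* window, at chr7:140900397-140900696, held 2. The *Cox8a* window, at chr19:7217567-7217866, held 19. With each gene taken by its window with the most CG, the median was 8 over all 27025 genes with a window. It was 23 over the 5638 genes of the table at 10 FPKM or more and 19 over the 70 members with a window. The window of *Cox7b*, the ubiquitous form beside *Cox7b2*, is not shown and held 5, fewer than that of *Cox7b2*. In the other pairs with both windows found, *Cox6b2* held 10 and *Cox6b1* 17, and *Cox7a1* held 7 and *Cox7a2* 20. CpG methylation was not analysed here.
Cox7b2: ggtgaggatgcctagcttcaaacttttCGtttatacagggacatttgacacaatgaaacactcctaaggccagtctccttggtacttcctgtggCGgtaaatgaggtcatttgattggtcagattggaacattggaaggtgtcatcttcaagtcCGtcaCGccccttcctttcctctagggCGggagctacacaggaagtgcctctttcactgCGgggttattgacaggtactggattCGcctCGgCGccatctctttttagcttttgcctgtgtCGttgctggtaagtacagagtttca
Cox8b: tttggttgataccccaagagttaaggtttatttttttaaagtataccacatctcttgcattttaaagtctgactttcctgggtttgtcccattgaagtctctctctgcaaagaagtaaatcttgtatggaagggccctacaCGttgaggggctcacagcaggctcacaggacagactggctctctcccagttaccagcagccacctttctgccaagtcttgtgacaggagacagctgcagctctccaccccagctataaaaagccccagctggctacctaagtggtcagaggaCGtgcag
Cox8a: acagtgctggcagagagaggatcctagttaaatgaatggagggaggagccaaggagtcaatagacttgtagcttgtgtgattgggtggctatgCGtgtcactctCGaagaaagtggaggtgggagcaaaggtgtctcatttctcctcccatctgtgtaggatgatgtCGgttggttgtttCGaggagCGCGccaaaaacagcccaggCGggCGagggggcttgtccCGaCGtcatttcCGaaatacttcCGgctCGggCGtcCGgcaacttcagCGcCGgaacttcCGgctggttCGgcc

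For 3 members the symbol does not tell the place in the chain. *Ndufa4*, now assigned to complex IV, was at 644.70 FPKM in *Dnmt1*-WT and 662.17 FPKM in *Dnmt1*-KO. Its paralog *Ndufa4l2*, which is induced by low oxygen, was at 14.07 and 20.96 FPKM, a ratio of 1.49, and overlaps *Shmt2*, which was at 16.50 and 20.56 FPKM. *Cox7a2l*, which joins complexes III and IV into supercomplexes, was at 210.67 and 183.54 FPKM.

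Complex V had 10 members lower and 7 higher in *Dnmt1*-KO, with a median log2 ratio of -0.09. Without *Atp5s* and *Atp5sl*, which encode no subunit, 8 were lower and 7 higher, with a median of -0.00079, and 2 rather than 4 were at least 20% lower. The 4 were 23.5% of the 17 members, near the 25.4% of all genes and 24.2% of those at 10 FPKM or more. Of the 17, 6 were at least 20% lower with division by the FPKM sum and 7 with centring on transcript length. *Atp5b*, which encodes the catalytic beta subunit, was at 816.95 FPKM in *Dnmt1*-WT and 580.52 FPKM in *Dnmt1*-KO, a ratio of 0.711 and the lowest of any subunit without centring. With centring on transcript length its log2 ratio was -0.54, and *Cox7b* (-0.60) and *Atp5j* (-0.56) were lower. *Atp5a1*, the alpha subunit next to it in the head, was at 451.91 and 398.09 FPKM. Both stayed lower under every alternative run. Of the central stalk, which turns inside the head, *Atp5c1* was lower, at 290.33 and 234.08 FPKM, while the small subunits *Atp5d* and *Atp5e* were higher, at 511.43 and 610.19 FPKM and at 454.18 and 593.42 FPKM. *Atp5d* overlaps *Cbarp*, which was at 17.25 and 25.73 FPKM.

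The peripheral stalk holds the head still against the ring, and none of its 4 subunits was higher. *Atp5j* was at 327.66 FPKM in *Dnmt1*-WT and 258.74 FPKM in *Dnmt1*-KO, *Atp5o* at 307.17 and 258.67 FPKM and *Atp5f1* at 305.35 and 262.89 FPKM. *Atp5h* was level, at 531.91 and 531.62 FPKM, and changed sign under 4 of the alternatives. *Atp5j* overlaps *Gabpa*, itself lower, at 14.38 and 9.75 FPKM.

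In the membrane part of the ATP synthase, 5 of 6 genes were higher in *Dnmt1*-KO by the ratio without scaling. Of all genes 50.3% were higher, and 47.1% of those at 10 FPKM or more. With division by the FPKM sum, 3 of the 6 were higher. *Atp5k*, subunit e, which joins ATP synthases into dimers, was at 1812.61 FPKM in *Dnmt1*-WT and 2555.15 FPKM in *Dnmt1*-KO, a ratio of 1.41. *Atp5l*, subunit g, was at 570.45 and 613.96 FPKM, and *Atp5j2*, subunit f, at 704.40 and 708.40 FPKM. *Atp5k* stayed higher with centring on transcript length, whereas *Atp5l*, *Atp5j2* and the ring gene *Atp5g2* turned lower, *Atp5g2* also with centring on GC content. The c subunit of the rotating ring is made from 3 genes that encode the same mature protein. *Atp5g1* was at 201.28 and 281.55 FPKM, *Atp5g2* at 265.17 and 279.97 FPKM and *Atp5g3* at 613.11 and 577.00 FPKM. The share of *Atp5g1* in their sum thus went from 18.6% to 24.7% and that of *Atp5g3* from 56.8% to 50.7%, while the sum was 1080 and 1139 FPKM.

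2 genes taken in by the symbol rule encode no subunit. *Atp5s*, a relative of the coupling factor of the ATP synthase, was at 3.98 and 2.33 FPKM, and *Atp5sl*, which helps to assemble the membrane arm of complex I, at 13.02 and 8.54 FPKM. They had the lowest ratios of all members, 0.585 and 0.656. *Atpif1*, the inhibitor of ATP hydrolysis by the ATP synthase, is not a member and was at 216.90 and 302.47 FPKM, a ratio of 1.39.

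**Figure D3:**
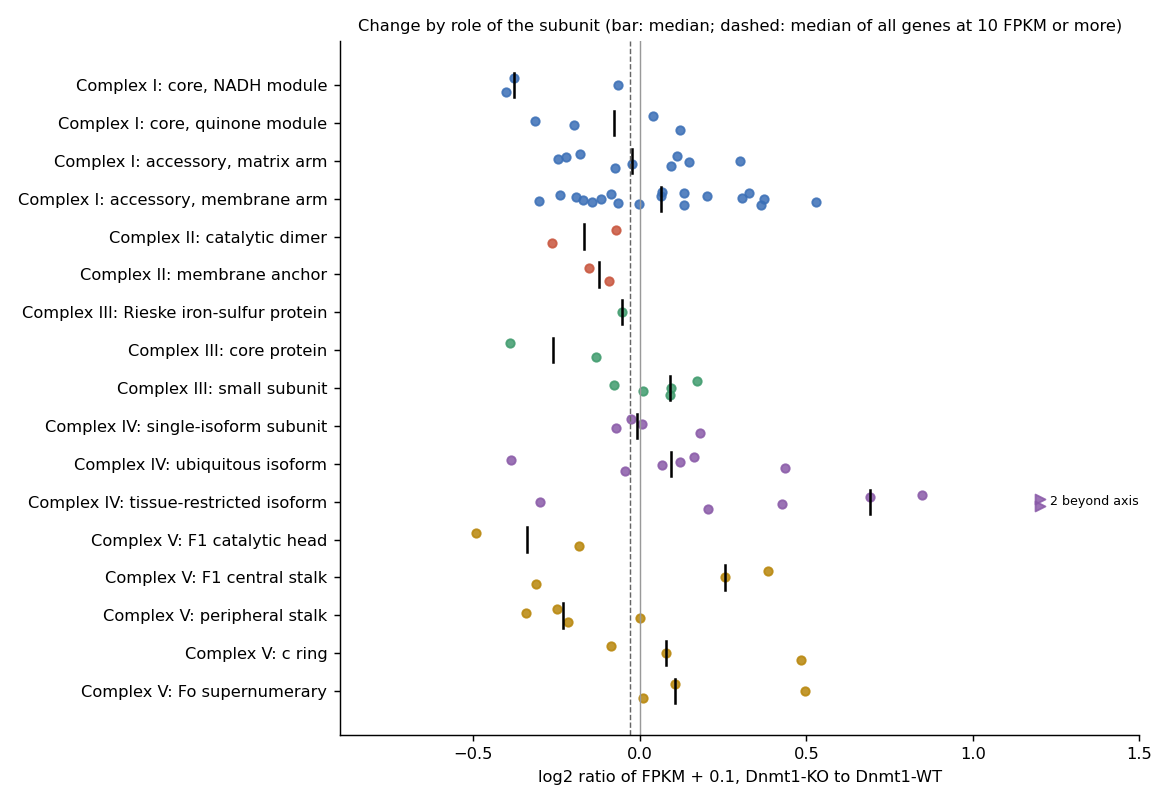
Log2 ratio of *Dnmt1*-KO to *Dnmt1*-WT (FPKM + 0.1, 1 library each) of 79 members by the role of the subunit (points), with the median of each role (bars), 0 (solid line) and the median of all genes at 10 FPKM or more, -0.03 (dashed line); the 6 members with other roles are left out and 2 points beyond the axis are drawn as triangles at its edge. The NADH module of complex I, complex II, the core proteins of complex III and the catalytic head of complex V lie left of 0, and the small subunits of complex III and the membrane subunits of complex V lie mostly right of it, before any scaling or centring.

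The direction of a member went with the length of its transcript. The Spearman correlation of length with the log2 ratio was -0.51 across the 85 members, whose median length was 763 nt, and -0.36 across the 7032 genes at 10 FPKM or more with a known length. Both are across genes of the same 2 libraries, and genes are not independent replicates. The members were divided by length into 4 classes of 21 or 22 genes. In the shortest class, from 360 to 572 nt, 16 were higher and 4 lower, with a median log2 ratio of 0.14. In the longest class, from 1251 to 3171 nt, 5 were higher and 16 lower, with a median of -0.18. Large catalytic subunits tend to have the longer transcripts and small membrane subunits the shorter ones, and role and length cannot be told apart in these values.

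Set beside other genes of the same length, the members were lower. In the shortest class the 105 other genes at 10 FPKM or more had a median log2 ratio of 0.54, against 0.14 for the members. The members were taken at any level in each class, and the shortest holds *Cox7b2* and *Cox8c*, listed at 0 in *Dnmt1*-WT. In the next 3 classes the medians of the other genes were 0.29, 0.21 and 0.02, against 0.06, -0.07 and -0.18. Genes for cytosolic ribosomal proteins are common among short transcripts and were higher in *Dnmt1*-KO, but without them the medians of the other genes were still 0.52, 0.25, 0.20 and 0.02. Centred on the median of genes in the same of 10 length classes, the members had a median of -0.18. Why short transcripts were higher was not tested.

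**Figure D4:**
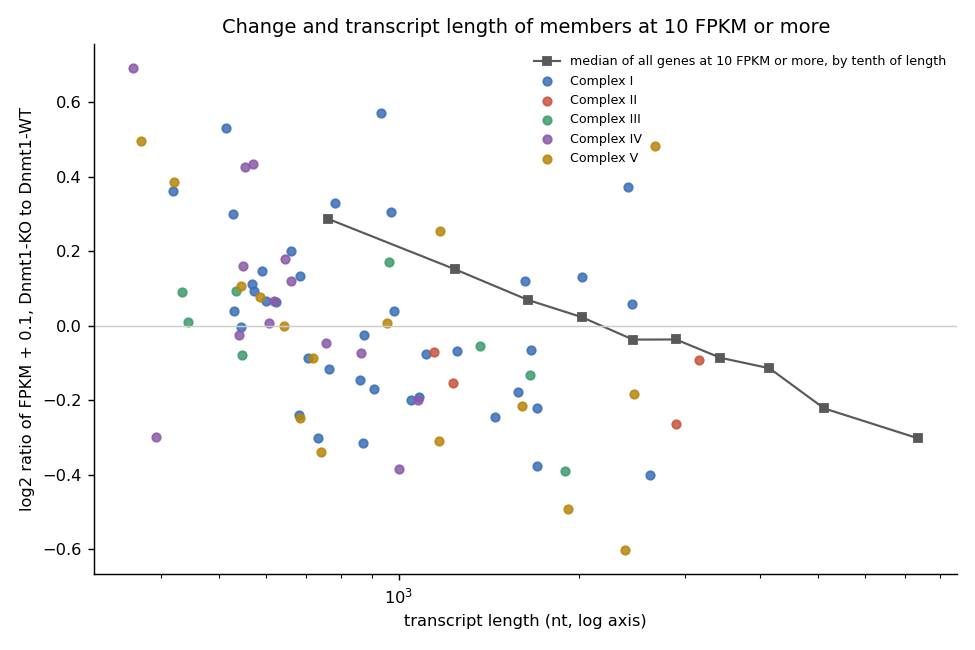
Log2 ratio of *Dnmt1*-KO to *Dnmt1*-WT (FPKM + 0.1, 1 library each) against transcript length (nt, log axis) for the 80 members at 10 FPKM or more, coloured by complex (points), and the median of all genes at that level in each of 10 length classes (squares and line). Both fall with length, from a median of 0.29 in the shortest class of genes to -0.30 in the longest, and where the line runs most members lie under it.

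Members higher after centring on length were few. Apart from *Cox6a2*, the largest centred log2 ratios among members above 0 in both libraries were those of *Atp5g1* (0.51), *Cox8b* (0.48), *Ndufb2* (0.36), *Ndufa4l2* (0.35), *Ndufa3* (0.31), *Atp5k* (0.28), *Cox6a1* (0.22) and *Cox6b2* (0.21). The places of *Atp5g1* and *Ndufb2* depend on the annotated lengths used, 2675.5 and 2413 nt. *Atp5g2* and *Atp5g3* were taken at 586 and 718.5 nt. Which transcripts the tissue expressed was not tested.

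Mitochondrial ribosomes make the subunits encoded in mitochondrial DNA. Of 77 genes for their proteins, 35 were lower and 42 higher, with a median log2 ratio of 0.02 that turned to -0.082 with centring on transcript length and to -0.078 with division by the FPKM sum. Of 77 cytosolic ribosomal protein genes, 4 were lower and 73 higher, with a median of 0.45 (0.26 with centring on length), and 53 were at least 25% higher. The difference between these groups was not tested.

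Genes that support the respiratory chain were mixed. Of 40 listed assembly factors, 22 were lower and 18 higher, with a median log2 ratio of -0.059 that became 0.0040 with scaling to the upper quartile. With division by the FPKM sum, 29 were lower and 11 higher, with a median of -0.16. *Uqcc2*, needed for complex III, was at 146.89 FPKM in *Dnmt1*-WT and 243.68 FPKM in *Dnmt1*-KO, and *Coa3*, a complex IV factor, at 49.64 and 78.34 FPKM, while *Tmem126b*, a complex I factor, was at 14.30 and 9.45 FPKM. The electron carrier *Cycs* was at 47.27 and 42.29 FPKM, and its testis form *Cyct* was listed at 0 and at 1.90 FPKM. *Ucp2*, a mitochondrial carrier abundant in macrophages, was at 33.58 and 57.49 FPKM.

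Regulators of mitochondrial biogenesis leaned lower, 11 of 15 with a median log2 ratio of -0.29, and 7 were at least 20% lower, where 49.1% of all genes were lower and 25.4% at least 20% lower. Under the other scalings and centrings 11 to 13 of the 15 were lower. *Ppargc1a*, the coactivator PGC-1α, was at 7.44 FPKM in *Dnmt1*-WT and 4.78 FPKM in *Dnmt1*-KO, and *Peo1*, the helicase of mitochondrial DNA, at 6.27 and 3.73 FPKM. Genes often read as a measure of mitochondrial content, such as porins and import receptors, had a median of -0.09, with 10 of 16 lower. With scaling to the upper quartile 8 of 16 were lower and the median was -0.024, and with division by the FPKM sum 11 were lower and it was -0.19. *Ucp1*, the defining gene of brown fat, is not in the table. Of other brown fat markers, *Cidea* was lower, at 15.91 and 13.21 FPKM, and *Dio2* higher, at 0.7 and 0.99 FPKM. *Elovl3* was listed at 0 in both libraries.

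**Figure D5:**
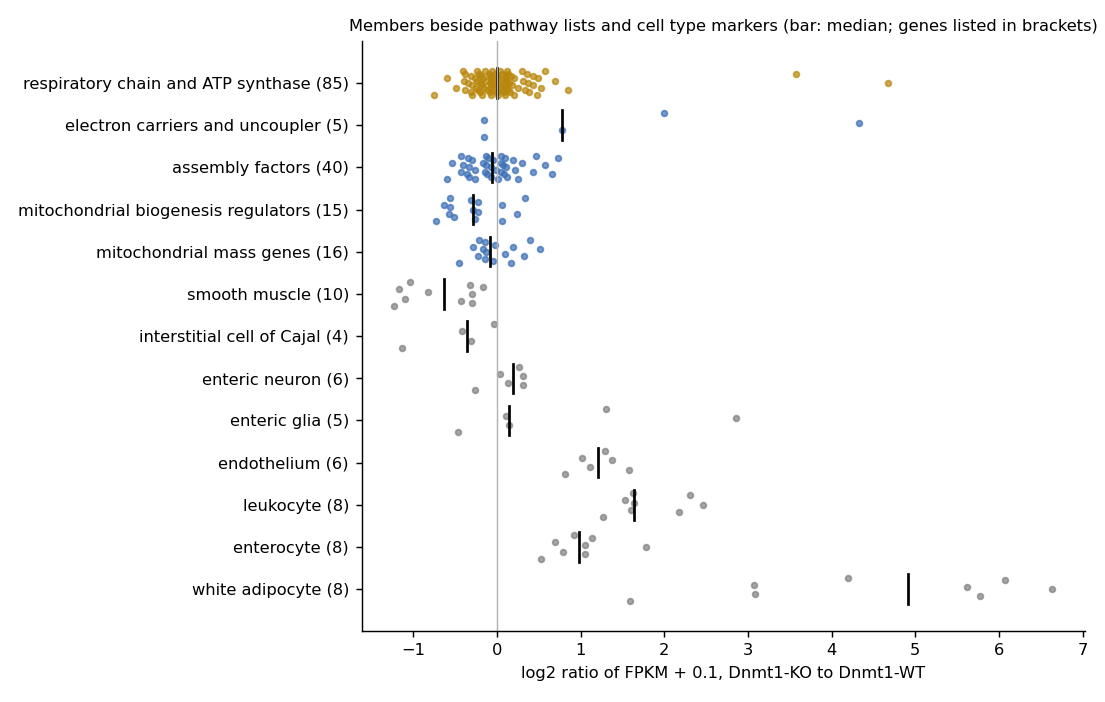
Log2 ratio of *Dnmt1*-KO to *Dnmt1*-WT (FPKM + 0.1, 1 library each) of every gene (points) and the median (bars) for the 85 members, for pathway lists and for cell type markers, with the number of listed genes in brackets. The members centre on 0, smooth muscle markers lie left of it, and endothelial, leukocyte, enterocyte and adipocyte markers lie right of it.

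The starts of respiratory genes are known for sites of the factor NRF1 (nuclear respiratory factor). A RefSeq window was found for 70 of the 85 members, and the NRF1 consensus motif of 10 bases was found on either strand in the window of 17 of them, or 24.3%. The share was 5.19% of all 27025 genes with a window and 12.6% of the 5638 genes of the table at 10 FPKM or more. The letters CCGGAAG, bound by ETS factors such as GABP, were in 22.9% of the members, 9.93% of all genes and 20.2% of genes at 10 FPKM or more, and AAGATGG, bound by YY1, in 17.1%, 7.28% and 9.38%. The letters GGGCGG, bound by SP1, were in 41.4% of the members, 38.2% of all genes and 72.7% of genes at 10 FPKM or more, and the motif of ERRα, a nuclear receptor that works with PGC-1α, in 2.86%, 0.466% and 0.302%. Both strands were searched, and none of these motifs contains another. By the ratio without scaling, members with and without the NRF1 motif were both split nearly evenly. Of the 17 with it 10 were lower and 7 higher, with a median log2 ratio of -0.0026, and of the 53 without it 27 were lower and 25 higher, with a median of -0.025. With centring on transcript length, only *Atp5k*, *Cox6a1* and *Ndufb4* of the 17 were higher. Of all members with a ratio, 78.3% were lower there. *Nrf1* itself was at 8.36 and 7.16 FPKM.

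The windows of *Cox6a1* and *Atp5k* are shown with the NRF1 motif in capitals. Of the 7 members with the motif that were higher in *Dnmt1*-KO without scaling, these 2 had the highest ratios. The windows of the others, among them *Ndufb4* with 3 matches, are not shown. *Cox6a1*, at chr5:115348909-115349208 on the minus strand, held it 2 times and had 32 CG dinucleotides. *Atp5k*, at chr5:108434350-108434649 on the minus strand, held it once, beginning 50 bases before the start, and had 19 CG dinucleotides. A match describes the letters of the window and is not a binding site by itself.
Cox6a1: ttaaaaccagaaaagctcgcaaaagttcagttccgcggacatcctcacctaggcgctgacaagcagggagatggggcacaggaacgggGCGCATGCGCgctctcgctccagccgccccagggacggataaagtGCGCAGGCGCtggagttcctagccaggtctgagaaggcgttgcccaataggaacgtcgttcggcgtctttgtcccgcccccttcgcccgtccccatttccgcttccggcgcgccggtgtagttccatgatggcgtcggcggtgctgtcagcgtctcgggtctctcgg
Atp5k: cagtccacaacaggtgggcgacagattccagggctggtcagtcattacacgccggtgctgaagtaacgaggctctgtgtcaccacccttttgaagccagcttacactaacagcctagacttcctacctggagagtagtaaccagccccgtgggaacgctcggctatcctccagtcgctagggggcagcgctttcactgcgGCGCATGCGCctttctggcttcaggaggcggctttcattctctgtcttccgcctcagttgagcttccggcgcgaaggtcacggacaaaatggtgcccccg

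The table also gives the number of transcript variants found for each gene in each library, a readout the symbol rule did not use. It was the same in both libraries for 73 members, lower in *Dnmt1*-KO for 6 and higher for 6, while 13.6% of all genes above 0 in both libraries had fewer and 12.5% had more. The complex I core held 3 of the 6 with fewer, *Ndufs3* with 4 variants in *Dnmt1*-WT and 3 in *Dnmt1*-KO, and *Ndufs8* and *Ndufv2* with 3 and 2. *Cox7b2* and *Cox8c* are among the 6 with more only because none was counted in *Dnmt1*-WT.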

How the data were processed

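RNA of jejunal tunica muscularis was made into 1 library for each genotype, *Dnmt1*-WT and *Dnmt1*-KO, with the TruSeq RNA kit. The deposited values are FPKM per gene, which the authors computed on mm10 (GRCm38), and the submitters' processing notes name TopHat 1.4.1 and Cufflinks 2.0.2. Counts per gene were not used here, so the depth behind a single gene was not computed. Values above 0 began at 0.03 FPKM in each library. The number of transcript variants per gene in each library was deposited beside the FPKM, and how variants were counted is not given in the sources used here. A column of the authors' own ratios was not used.

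Plain ratios of FPKM were taken for genes above 0 in both libraries, and log2 ratios with 0.1 added to each FPKM, without rescaling. With 1 library for each genotype no test was made. Thresholds were a level 20% lower or 25% higher, ratios of 0.5 and 2 and a level of 10 FPKM in at least one library. Transcript length was the median and GC content the mean over a gene's principal transcripts in GENCODE release M21, or over all its transcripts where none was marked principal. Both were found for 17950 symbols and all members. Start windows, gene positions and overlaps came from RefSeq. The members, gene lists and alternatives were chosen with earlier results of these data known. Genes named in full were the core subunits, the isoform pairs, the 3 highest and 3 lowest ratios (FPKM + 1) and the 3 most abundant members of each complex, members past a ratio of 2 or 0.5 at 1 FPKM or more, and genes of the pathway lists past a ratio of 1.5 either way, with *Cyc1*, *Cycs*, *Atpif1* and *Ppargc1a* in any case. The values of 1 member of complex I are not reported here singly. Further members and overlapping genes were named after their values were seen. Counting and centring were tested on simulated data. Alternatives were the scaling between libraries, the pseudocount, filters on low values, and centring on transcript length and GC content. A further one left out restricted isoforms, *Cox7a2l* and genes that are no subunit. Python 3.11.15, numpy 2.4.6, pandas 2.3.3 and matplotlib 3.10.9 were used.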

Additional observations from a re-analysis of the deposited data

How the results depend on the processing

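Scaling to the median, a trimmed mean or the upper quartile, a pseudocount of 1 or none, a minimum of 1 FPKM and centring on GC content left the median of each complex and of all members within 0.1 on the log2 scale, and the counts of all members within 1.5 times. Dividing each library by its FPKM sum shifted the log2 ratios by 0.10, less for genes near 0 FPKM, and moved the medians to -0.10 for all members, -0.083 for complex I, -0.22 for complex II, -0.12 for complex III, 0.040 for complex IV and -0.19 for complex V, with 17 members at least 20% lower (16 without small RNA genes in the sum). Centring on transcript length gave medians of -0.18 for all members, -0.18 for complex I, -0.25 for complex II, -0.17 for complex III, -0.076 for complex IV and -0.22 for complex V, with 65 members lower, 18 higher, 22 at least 20% lower and 5 at least 25% higher. The same centring over genes at 10 FPKM or more, chosen after seeing the data, gave -0.22, -0.22, -0.22, -0.20, -0.15 and -0.29, with 65 lower, 18 higher, 26 at least 20% lower and 4 at least 25% higher. The median of complex IV was 0.037 with a level of 10 FPKM required and 0.037 without restricted isoforms and *Cox7a2l*. In both length centrings 22 members turned from higher to lower and none the other way, the largest of them at 0.21 on the log2 scale. The cause was not tested.

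No paired analysis was possible because each genotype has 1 library and the labels carry no replicate numbers. With 1 library for each genotype no difference has a replicate check, any difference in handling between the libraries cannot be told apart from genotype, and without counts per gene no value has a counting interval.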
